A study of Homo sapiens with 6 samples.

Results

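The genes described here make, regulate or move cholesterol and fatty acids, and were measured in SH-SY5Y cells, an established line from a human neuroblastoma that can take on neuron-like traits. They are 32 genes picked by name from a table of 28862: 7 of the mevalonate pathway, 11 that turn its product into squalene and the sterol ring, 5 that regulate the transcription factors called sterol regulatory element-binding proteins (SREBPs), 5 that move sterols, and 4 that make fatty acids. They are a selection, and other genes of the same pathways follow further on. Messenger RNA was sequenced from 3 libraries labelled SMN1 overexpression, called here SMN1-labelled, and from 3 libraries of cells given a control plasmid. Both groups are the same line. The labels give no time point, dose, promoter or selection of transfected cells. Nor do they tie the libraries to separate cultures, and a p-value here measures the spread between libraries that may be technical repeats. SMN1, which encodes the survival motor neuron protein, stood at 16.0 ± 1.08 CPM in the SMN1-labelled libraries and 20.02 ± 0.432 CPM in the control libraries (SD, n = 3 each; log2 fold change -0.32, edgeR adjusted p = 9.4e-05), so the level of that gene goes against the label and every direction below is between libraries as labelled. SMN2, its near-identical copy with which reads may be shared, had a log2 fold change of -0.30 (edgeR adjusted p = 0.0031).

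Cells build cholesterol from acetyl-CoA. The mevalonate pathway makes isoprenoid units, squalene synthase joins them, and a chain of enzymes in the endoplasmic reticulum closes and trims the sterol ring. SREBPs switch on both this pathway and fatty acid synthesis: the escort protein SCAP carries them to the Golgi for cleavage, and INSIG proteins hold SCAP back when sterols are plentiful. Neurons need sterol for the membranes of growing neurites and synapses.

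Each library held 30379242 to 40275498 reads assigned to genes. Levels are given as CPM, reads per 1000000 of a library size scaled with TMM factors, and fold changes set the SMN1-labelled group over the control group. In cultures measured in bulk, fewer cells with a transcript and less of it per cell cannot be told apart. Of 10 adrenergic neuroblastoma markers 9 were at 1 CPM or more in every library; TH, the rate-limiting enzyme of catecholamine synthesis, was not. Their sum ranged from 33177 to 34392 CPM in the SMN1-labelled libraries and from 25812 to 27594 CPM in the control libraries. The markers of liver (2 of 4 listed) and blood cells (1 of 3) found in the table summed to at most 0.183 CPM in any library. Of 8 mesenchymal or Schwann-like markers 3 were at 1 CPM or more in every library, and their sum ranged from 12.7 to 14.6 CPM in the SMN1-labelled libraries and from 30.0 to 34.3 CPM in the control libraries. Of 5 epithelial markers 2 were, and their sum ranged from 9.08 to 9.52 CPM in the SMN1-labelled libraries and from 22.7 to 23.1 CPM in the control libraries. The part of these differences in the results below was not tested.

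The 32 genes did not move as 1 block. ABCA1, a sterol exporter, was too low to test. Of the other 31, 9 were higher and 8 lower in the SMN1-labelled libraries at an adjusted p of at most 0.05 (edgeR quasi-likelihood test, adjusted over 15829 genes), and 14 were not called. That is 29.0% higher and 25.8% lower, beside 28.0% and 28.2% of all genes tested, so the overall share of calls was close to the background. The median log2 fold change was 0.05 over the 31 genes and 0.00 over all genes. Folds were small: the called genes rose 1.11- to 1.48-fold or fell 1.13- to 1.49-fold. Of the 31 genes 10 were called with a log2 fold change of at least 0.3 in size, against 35.8% of all genes tested. For 10 of the 31 genes every SMN1-labelled library lay above every control library and for 8 every one lay below, against 30.4% and 30.2% of all genes.

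**Figure D1:**
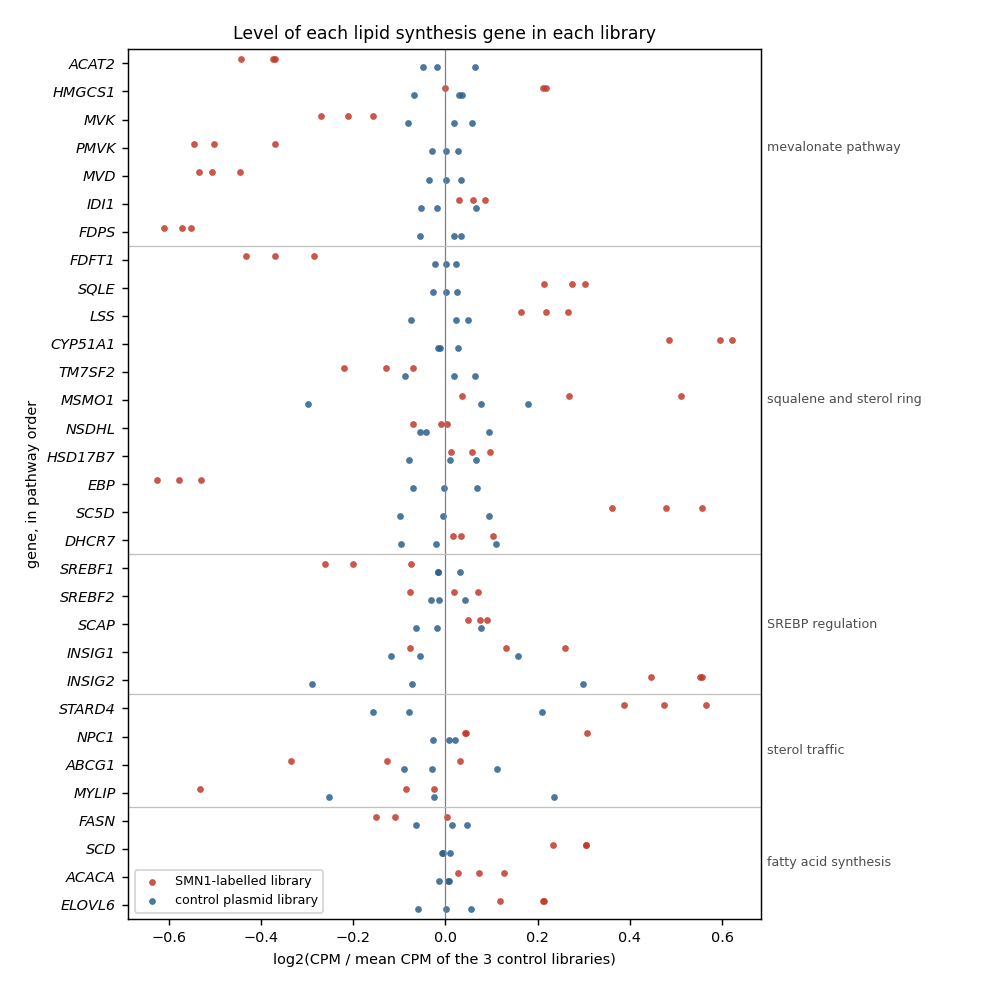
Level of each of the 31 tested genes in each library, as log2 of its CPM over the mean CPM of the 3 control libraries, in pathway order. Points are single libraries, SMN1-labelled in red above control plasmid in blue; FDPS, EBP and MVD lie farthest to the low side, and CYP51A1, INSIG2, STARD4 and SC5D to the high side, where the third control library of INSIG2 lies toward the SMN1-labelled ones.

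The mevalonate pathway was the group of genes that was mostly lower. In the SMN1-labelled libraries 5 of its 7 genes fell (71.4%), 1 rose (14.3%) and 1 was not called, beside 28.2% and 28.0% of all genes. The median over its genes was -0.39 on the log2 scale. It was -0.11 once trends of fold change with gene length and GC content, described further on, were removed. The median GC content of these genes was 56.0%, above the 48.8% median of all genes, where 41.8% of all genes fell and 13.3% rose. FDPS, which makes farnesyl diphosphate, the branch point to sterols and to protein prenylation, was at 110.2, 109 and 106 CPM in the SMN1-labelled libraries and 164, 156 and 166 CPM in the control libraries. The groups lay far apart, and FDPS fell 1.49-fold (log2 fold change -0.58 with SE 0.04, edgeR adjusted p = 3.9e-12). MVD, the decarboxylase that yields isopentenyl diphosphate, was at 18.8, 18.0 and 17.7 CPM in the SMN1-labelled libraries and 26.2, 25.0 and 25.6 CPM in the control libraries. It fell 1.41-fold, again without overlap (log2 fold change -0.50, SE 0.05, edgeR adjusted p = 3.5e-08).

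PMVK, the kinase that acts on phosphomevalonate, was at 96.5, 85.4 and 88.1 CPM in the SMN1-labelled libraries and 125, 127 and 122 CPM in the control libraries. It fell 1.39-fold without overlap (log2 fold change -0.47, SE 0.04, edgeR adjusted p = 1.2e-09), but by a log2 fold change of only -0.11 (edgeR adjusted p = 0.0211) once trends of fold change with gene length and GC content, described further on, were removed. ACAT2, the cytosolic thiolase that opens the pathway by joining acetyl-CoA molecules, was at 46.5, 48.7 and 48.9 CPM in the SMN1-labelled libraries and 61.1, 66.0 and 62.3 CPM in the control libraries. It fell 1.31-fold (log2 fold change -0.39, SE 0.04, edgeR adjusted p = 2.8e-08). The groups did not overlap. Its exons overlap 1458 nt of SOD2-OT1, 1141 nt of SOD2 and 397 nt of TCP1 on the opposite strand in the GENCODE v29 annotation, so reads of these genes could be mixed if they were counted without strand. MVK, mevalonate kinase, fell 1.16-fold, with 13.3 ± 0.524 CPM in the SMN1-labelled libraries and 15.4 ± 0.756 CPM in the control libraries (edgeR adjusted p = 0.0089). That call was lost without the first control library (edgeR adjusted p = 0.0507), with DESeq2 (adjusted p = 0.0636) and on FPKM values (limma adjusted p = 0.151 to 0.256).

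HMGCS1, which makes the HMG-CoA that feeds the pathway, was the 1 gene of the 7 called higher. It was at 53.4, 61.9 and 62.1 CPM in the SMN1-labelled libraries and 50.9, 54.8 and 54.5 CPM in the control libraries, so the first SMN1-labelled library lay among the controls. The rise of 1.11-fold (log2 fold change 0.15, SE 0.05, edgeR adjusted p = 0.0155) was not called without the first control library (edgeR adjusted p = 0.108), the second SMN1-labelled library (0.0992) or the third SMN1-labelled library (0.0705). With the length and GC trends removed it was not called and its sign turned (log2 fold change -0.05, edgeR adjusted p = 0.415). IDI1, the isomerase of isopentenyl diphosphate, was at 11.9 ± 0.231 CPM in the SMN1-labelled libraries and 11.4 ± 0.488 CPM in the control libraries and was not called (log2 fold change 0.06, 95% interval -0.09 to 0.20). The ratio of HMGCS1 to FDPS was 0.547 ± 0.0548 in the SMN1-labelled libraries and 0.331 ± 0.0206 in the control libraries (SD, n = 3 each), without overlap. The exact permutation test of this ratio, two-sided, gave p = 0.1, the smallest that 3 against 3 allows. The pair was chosen after its values were seen, so the ratio adds no support to the results of the separate genes.

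Genes that make squalene and the sterol ring moved in both directions. In the SMN1-labelled libraries 4 of 11 rose (36.4%), 2 fell (18.2%) and 5 were not called, beside 28.0% and 28.2% of all genes, and the median over the 11 was 0.05 on the log2 scale. The genes that rose were SQLE and LSS, the epoxidase and cyclase that turn squalene into lanosterol, CYP51A1, the demethylase that acts on lanosterol next, and SC5D, a desaturase late in the chain. The genes that fell were FDFT1, squalene synthase, and EBP, the isomerase that shifts a double bond in the ring.

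CYP51A1 had the largest fitted rise of the 31 genes, an order that rests on single libraries: without the third control library INSIG2 stood above it (log2 fold change 0.70 against 0.56), and without the second control library STARD4 did (0.592 against 0.585). CYP51A1 was at 49.7, 54.7 and 53.7 CPM in the SMN1-labelled libraries and 35.1, 36.2 and 35.2 CPM in the control libraries, 1.48-fold higher (log2 fold change 0.57, SE 0.04, edgeR adjusted p = 1.9e-10). Of its 3584 exonic nt 2844 are shared with another annotated protein-coding gene on the same strand, so strand would not part their reads. That other gene is not in the count table. A further gene on the same strand, which is in the count table, overlaps 99 nt. SC5D was at 9.20, 10.5 and 9.98 CPM in the SMN1-labelled libraries and 6.69, 7.14 and 7.65 CPM in the control libraries. Its rise of 1.39-fold (log2 fold change 0.47 with SE 0.09, edgeR adjusted p = 5.2e-05) also left a gap between the groups. SQLE rose 1.20-fold, with 39.0 ± 1.20 CPM in the SMN1-labelled libraries and 32.5 ± 0.596 CPM in the control libraries (edgeR adjusted p = 2.2e-05). LSS rose 1.16-fold, with 44.0 ± 1.57 CPM in the SMN1-labelled libraries and 37.9 ± 1.69 CPM in the control libraries (edgeR adjusted p = 0.00029). For both genes the groups did not overlap.

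EBP was at 27.8, 29.7 and 28.8 CPM in the SMN1-labelled libraries and 45.0, 40.9 and 42.8 CPM in the control libraries. Its fall of 1.49-fold (log2 fold change -0.57, SE 0.05, edgeR adjusted p = 4.4e-10) was as large as that of FDPS to 2 decimals of the fold. FDFT1 was at 48.4, 50.5 and 53.6 CPM in the SMN1-labelled libraries and 66.3, 64.2 and 65.3 CPM in the control libraries. It fell 1.28-fold (log2 fold change -0.36 with SE 0.04, edgeR adjusted p = 1.2e-07), with no overlap. The ratio of CYP51A1 to EBP was 1.83 ± 0.0397 in the SMN1-labelled libraries and 0.829 ± 0.0536 in the control libraries. The groups could not overlap in this ratio, since each gene already lay apart, in opposite directions. Its exact permutation p, two-sided, of 0.1 was thereby fixed and adds no support to the results of the separate genes.

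The remaining ring genes were not called. DHCR7, the reductase that completes cholesterol in 1 branch of the pathway, was at 15.4 ± 0.491 CPM in the SMN1-labelled libraries and 14.9 ± 1.09 CPM in the control libraries (log2 fold change 0.05, 95% interval -0.09 to 0.19). NSDHL, a dehydrogenase of the step that strips methyl groups from the ring, had a log2 fold change of -0.03 (95% interval -0.12 to 0.07), and HSD17B7, the reductase of that step, 0.05 (-0.09 to 0.19). Reads of a pseudogene named after HSD17B7 came to 11.01% to 18.26% of its own in the SMN1-labelled libraries and 9.56% to 11.9% in the control libraries, so its count is less certain. MSMO1, the oxidase of the same step, was low, at 2.87, 3.37 and 3.98 CPM in the SMN1-labelled libraries and 3.16, 2.95 and 2.27 CPM in the control libraries, and its interval was wide (log2 fold change 0.28, -0.03 to 0.59). MSMO1 was called higher without the first SMN1-labelled library (edgeR adjusted p = 0.0400). TM7SF2, a sterol reductase, had a log2 fold change of -0.14 (-0.34 to 0.07).

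Levels were also summed over the genes of each role, where an exact permutation test of 3 against 3 libraries cannot go below p = 0.1. The 7 mevalonate genes together were at 350, 348 and 348 CPM in the SMN1-labelled libraries and 455, 455 and 456 CPM in the control libraries, 23.4% lower in the SMN1-labelled group (exact permutation test, two-sided, p = 0.1). FDPS and PMVK were the largest terms of this sum, and no sum was corrected for the length and GC trends. The 11 genes of squalene and the sterol ring were at 299, 307 and 304 CPM in the SMN1-labelled libraries and 306, 297 and 295 CPM in the control libraries, where the groups overlap (exact permutation test, two-sided, p = 0.3). The ratio of the second sum to the first was 0.871 ± 0.0143 in the SMN1-labelled libraries and 0.657 ± 0.0140 in the control libraries. The groups did not overlap in this ratio, and the exact permutation p was 0.1, the smallest possible. The fatty acid sum was 7.63% higher in the SMN1-labelled libraries without overlap (exact permutation p = 0.1). SCD alone, at 286 ± 8.16 CPM in the SMN1-labelled libraries and 235 ± 1.54 CPM in the control libraries, rose by more CPM than this sum. Among the others, ACACA and ELOVL6 had a higher mean and FASN a lower one. The sum of sterol traffic was 33.2 ± 2.69 CPM in the SMN1-labelled libraries and 29.96 ± 1.09 CPM in the control libraries (exact permutation p = 0.1). That of SREBP regulation was 106 ± 1.90 CPM in the SMN1-labelled libraries and 104 ± 1.28 CPM in the control libraries (exact permutation p = 0.2). All ratios between genes or sums were chosen after the values of the genes were seen.

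**Figure D2:**
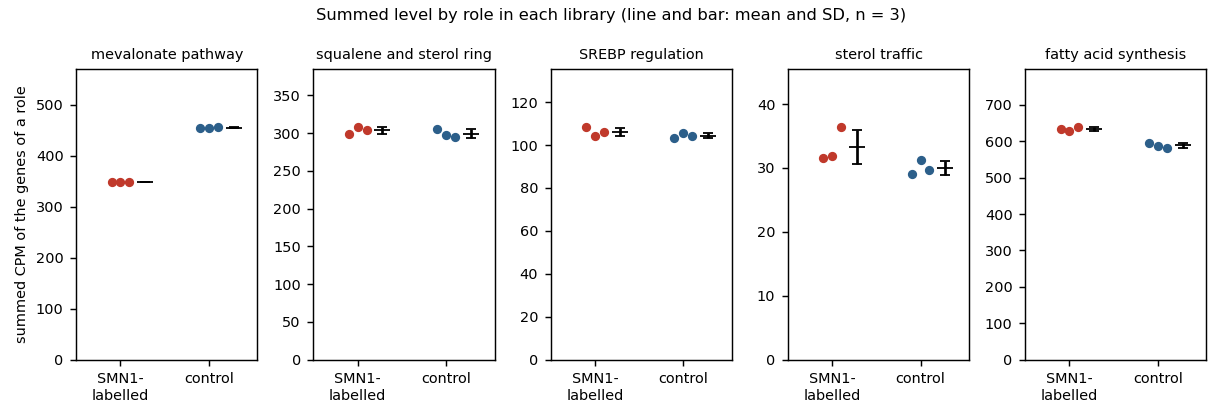
Summed CPM of the genes of each role in each library, with the SMN1-labelled libraries in red left of the control plasmid libraries in blue; black lines and bars are mean and SD over 3 libraries. The mevalonate sum is lower in the SMN1-labelled libraries, at 349 ± 0.901 against 455 ± 0.707 CPM, and the fatty acid sum higher, at 634 ± 5.03 against 589 ± 7.65 CPM. The rise of the fatty acid sum is smaller than that of SCD alone.

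Of the SREBP regulators INSIG2 rose and SREBF1 fell. INSIG2, a retention protein that keeps SCAP in the endoplasmic reticulum, was at 5.34, 5.77 and 5.75 CPM in the SMN1-labelled libraries and 3.73, 3.21 and 4.83 CPM in the control libraries. It was 1.44-fold higher (log2 fold change 0.52, SE 0.12, edgeR adjusted p = 0.00084); the third control library came closest to the SMN1-labelled ones. INSIG1, the other INSIG gene and itself an SREBP target, was at 6.99, 8.08 and 8.82 CPM in the SMN1-labelled libraries. In the control libraries INSIG1 was at 6.79, 8.22 and 7.10 CPM. The groups overlap, and INSIG1 was not called (log2 fold change 0.11, 95% interval -0.09 to 0.31). The changes of the 2 INSIG genes were not shown to differ: the ratio of INSIG2 to INSIG1 was 0.710 ± 0.0567 in the SMN1-labelled libraries and 0.540 ± 0.145 in the control libraries, with overlap (exact permutation test, two-sided, p = 0.2).

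SREBF2 encodes the SREBP that mainly drives sterol genes. It was at 42.3, 38.2 and 40.8 CPM in the SMN1-labelled libraries and 41.5, 39.9 and 39.4 CPM in the control libraries, fully intermixed (log2 fold change 0.00, 95% interval -0.09 to 0.10). SREBF1, whose products mainly drive fatty acid genes, was at 18.9, 17.3 and 16.6 CPM in the SMN1-labelled libraries and 19.7, 19.7 and 20.3 CPM in the control libraries. Its fall of 1.13-fold (log2 fold change -0.18, SE 0.06, edgeR adjusted p = 0.0152) was the least secure of the 17 calls, since it was lost in 9 of 16 alternative analyses, among them those without the third control library (edgeR adjusted p = 0.0536) and without the second (0.0585) or the third (0.0818) SMN1-labelled library. SCAP was at 34.7, 35.0 and 34.0 CPM in the SMN1-labelled libraries and 31.5, 34.7 and 32.5 CPM in the control libraries and was not called (log2 fold change 0.07, 95% interval -0.03 to 0.17).

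Sequence before the RefSeq start was examined for motifs known from sterol genes. The 250 bases before each gene's RefSeq start (GRCh38.p14) were searched on both strands for the sterol regulatory element TCACNCCAC, the CCAAT box CCAAT bound by NF-Y, the GC box GGGCGG bound by SP1, and the E-box CACGTG. Sequences from RefSeq matched 27 of the 32 genes by symbol, and no match of 1 motif shared bases with a match of another. These windows are not all upstream of transcription: in GENCODE v29, 7 of the 27 are wholly exon of some transcript (EBP, MVK, NPC1, PMVK, SC5D, SREBF2 and TM7SF2), 18 are partly exon and 2 hold none. The CCAAT box was in 17 of 27 (63.0%), beside 35.0% of 10995 promoters of tested genes, and the GC box in 26 of 27 (96.3%), beside 67.8%. The CCAAT box was in 5 of 8 genes that rose, 4 of 6 that fell and 8 of 12 that were not called; the remaining gene, ABCA1, was not tested. The sterol regulatory element in this spelling was in SREBF2 alone, beside 0.8% of the promoters of tested genes, and the E-box was in 4 of 27, beside 8.8%. A match describes letters in this window and is not a binding site; CCAAT and GC boxes were found both in genes that rose and in genes that fell. The sequences below are those of the 3 genes with the largest rises, the 3 with the largest falls, and SREBF2, which holds the element; they run 5′ to 3′ toward the start, with the matched motifs in capitals. They lie at chr7:92134478-92134727, minus strand (CYP51A1), chr2:118088221-118088470, plus strand (INSIG2), chr5:111512536-111512785, minus strand (STARD4), chr1:155308616-155308865, plus strand (FDPS), chrX:48521558-48521807, plus strand (EBP), chr16:88663092-88663341, minus strand (MVD) and chr22:41832855-41833104, plus strand (SREBF2). Of their 250 bases each, GENCODE v29 annotates 177 in CYP51A1, 19 in INSIG2, 55 in STARD4, 118 in FDPS, 114 in MVD and all in EBP and SREBF2 as exon.
CYP51A1: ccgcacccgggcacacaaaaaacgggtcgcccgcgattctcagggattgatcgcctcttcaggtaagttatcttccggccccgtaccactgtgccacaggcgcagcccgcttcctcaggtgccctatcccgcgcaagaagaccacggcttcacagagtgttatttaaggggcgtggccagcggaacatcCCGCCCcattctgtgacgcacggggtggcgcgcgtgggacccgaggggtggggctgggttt
INSIG2: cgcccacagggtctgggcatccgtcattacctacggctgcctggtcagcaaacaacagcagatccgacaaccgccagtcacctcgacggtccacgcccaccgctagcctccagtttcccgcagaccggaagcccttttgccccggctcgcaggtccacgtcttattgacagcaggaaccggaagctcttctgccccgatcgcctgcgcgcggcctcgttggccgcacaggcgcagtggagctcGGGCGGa
STARD4: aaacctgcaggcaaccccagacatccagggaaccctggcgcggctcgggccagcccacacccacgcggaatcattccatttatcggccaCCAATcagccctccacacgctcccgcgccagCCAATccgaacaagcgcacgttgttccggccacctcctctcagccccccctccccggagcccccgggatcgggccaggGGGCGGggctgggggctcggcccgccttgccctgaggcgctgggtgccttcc
FDPS: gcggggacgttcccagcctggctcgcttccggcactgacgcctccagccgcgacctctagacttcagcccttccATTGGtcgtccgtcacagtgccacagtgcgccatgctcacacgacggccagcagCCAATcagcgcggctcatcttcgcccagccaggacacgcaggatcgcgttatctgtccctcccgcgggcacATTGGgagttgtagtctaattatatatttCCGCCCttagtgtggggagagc
EBP: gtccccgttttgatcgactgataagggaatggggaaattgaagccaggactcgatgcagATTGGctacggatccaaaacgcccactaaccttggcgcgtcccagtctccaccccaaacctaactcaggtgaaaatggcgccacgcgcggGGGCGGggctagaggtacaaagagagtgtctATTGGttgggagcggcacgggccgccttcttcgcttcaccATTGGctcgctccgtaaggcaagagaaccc
MVD: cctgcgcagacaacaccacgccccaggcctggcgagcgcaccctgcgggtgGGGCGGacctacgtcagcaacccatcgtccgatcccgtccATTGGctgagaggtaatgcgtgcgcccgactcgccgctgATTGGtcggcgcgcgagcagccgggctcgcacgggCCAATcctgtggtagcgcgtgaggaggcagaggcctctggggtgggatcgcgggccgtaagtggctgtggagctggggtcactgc
SREBF2: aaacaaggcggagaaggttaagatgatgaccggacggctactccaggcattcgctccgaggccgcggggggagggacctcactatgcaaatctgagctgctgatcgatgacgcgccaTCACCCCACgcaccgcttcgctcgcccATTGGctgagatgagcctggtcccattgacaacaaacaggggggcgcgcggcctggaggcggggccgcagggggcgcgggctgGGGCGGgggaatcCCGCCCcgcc

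Among genes of sterol traffic STARD4 rose. STARD4, a soluble carrier that moves cholesterol between membranes, was at 7.97, 7.04 and 7.48 CPM in the SMN1-labelled libraries and 4.83, 6.22 and 5.10 CPM in the control libraries. It was 1.39-fold higher without overlap (log2 fold change 0.47, SE 0.10, edgeR adjusted p = 0.00038). NPC1, which exports cholesterol from lysosomes, was at 19.1, 19.1 and 22.9 CPM in the SMN1-labelled libraries and 18.8, 18.6 and 18.2 CPM in the control libraries; the groups did not overlap, but the third SMN1-labelled library stood apart and the gene was not called (edgeR adjusted p = 0.0943). NPC1 was called higher without the first (edgeR adjusted p = 0.0403) or the second (0.0434) SMN1-labelled library. MYLIP, a ubiquitin ligase that degrades lipoprotein receptors, was at 1.67, 2.38 and 2.28 CPM in the SMN1-labelled libraries and 2.03, 2.85 and 2.38 CPM in the control libraries, and was not called (log2 fold change -0.19, 95% interval -0.54 to 0.16). ABCG1, a sterol exporter, was at 3.22 ± 0.407 CPM in the SMN1-labelled libraries and 3.54 ± 0.256 CPM in the control libraries (log2 fold change -0.13, -0.40 to 0.13). ABCA1 had 2, 2 and 2 reads in the SMN1-labelled libraries and 4, 1 and 4 reads in the control libraries, at or near the 3 reads that a count of 0 allows, and no fold is given. ABCA1, ABCG1 and MYLIP are targets of the liver X receptors that respond to sterol excess.

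Among fatty acid genes SCD and ELOVL6 rose. SCD, the desaturase that makes monounsaturated fatty acids, was at 277, 291 and 291 CPM in the SMN1-labelled libraries and 235, 234 and 237 CPM in the control libraries. It was 1.22-fold higher with a wide gap between the groups (log2 fold change 0.28, SE 0.03, edgeR adjusted p = 1.7e-07). ELOVL6, which lengthens the fatty acid made by FASN, was at 28.6, 30.6 and 30.5 CPM in the SMN1-labelled libraries and 26.4, 25.3 and 27.4 CPM in the control libraries, 1.14-fold higher (log2 fold change 0.18, SE 0.05, edgeR adjusted p = 0.0033). With the length and GC trends removed ELOVL6 was not called and its sign turned (log2 fold change -0.06, edgeR adjusted p = 0.315).

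FASN, fatty acid synthase, was at 247, 222 and 229 CPM in the SMN1-labelled libraries and 255, 249 and 236 CPM in the control libraries. These overlap, and the gene was not called (log2 fold change -0.08, edgeR adjusted p = 0.077), although it was called lower without the first SMN1-labelled library (edgeR adjusted p = 0.0056) or the third control library (0.0228). ACACA, the acetyl-CoA carboxylase that supplies FASN, was at 81.7, 84.2 and 87.5 CPM in the SMN1-labelled libraries and 80.5, 79.4 and 80.4 CPM in the control libraries, higher in every SMN1-labelled library but not called (log2 fold change 0.08, edgeR adjusted p = 0.0897; 0.0303 without the first SMN1-labelled library). The ratio of SCD to FASN was 1.23 ± 0.101 in the SMN1-labelled libraries and 0.956 ± 0.0436 in the control libraries, without overlap (exact permutation test, two-sided, p = 0.1, the smallest possible). This pair too was chosen after its values were seen, and its ratio adds no support to the results of the separate genes.

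Scaled by gene length, PMVK was the most abundant of the 32 transcripts in both groups. On the FPKM scale deposited by the authors it stood at 87.3 ± 5.23 in the SMN1-labelled libraries and 114 ± 3.45 in the control libraries. SCD and FDPS, next in the order of both groups, were at 53.1 ± 1.77 and 28.3 ± 0.436 FPKM in the SMN1-labelled libraries and at 41.02 ± 0.218 and 39.7 ± 1.06 FPKM in the control libraries. In the SMN1-labelled libraries SCD and FDPS lay far apart, whereas in the control libraries their means differed by little more than the SD of FDPS. FASN was the fourth in both groups, at 24.3 ± 1.26 FPKM in the SMN1-labelled libraries and 24.2 ± 1.21 FPKM in the control libraries. EBP was the seventh in the SMN1-labelled libraries, below NSDHL and ACAT2, and the fifth in the control libraries, where EBP and ACAT2 differed by less than their SDs. SC5D was the least abundant enzyme of the sterol ring in the SMN1-labelled and the control libraries, at 0.957 ± 0.0709 FPKM in the SMN1-labelled libraries and 0.650 ± 0.0400 FPKM in the control libraries. On FPKM the fold changes of all genes are shifted upward, with a median log2 fold change of 0.09 on log2(FPKM + 0.1) against 0.00 on counts.

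**Figure D3:**
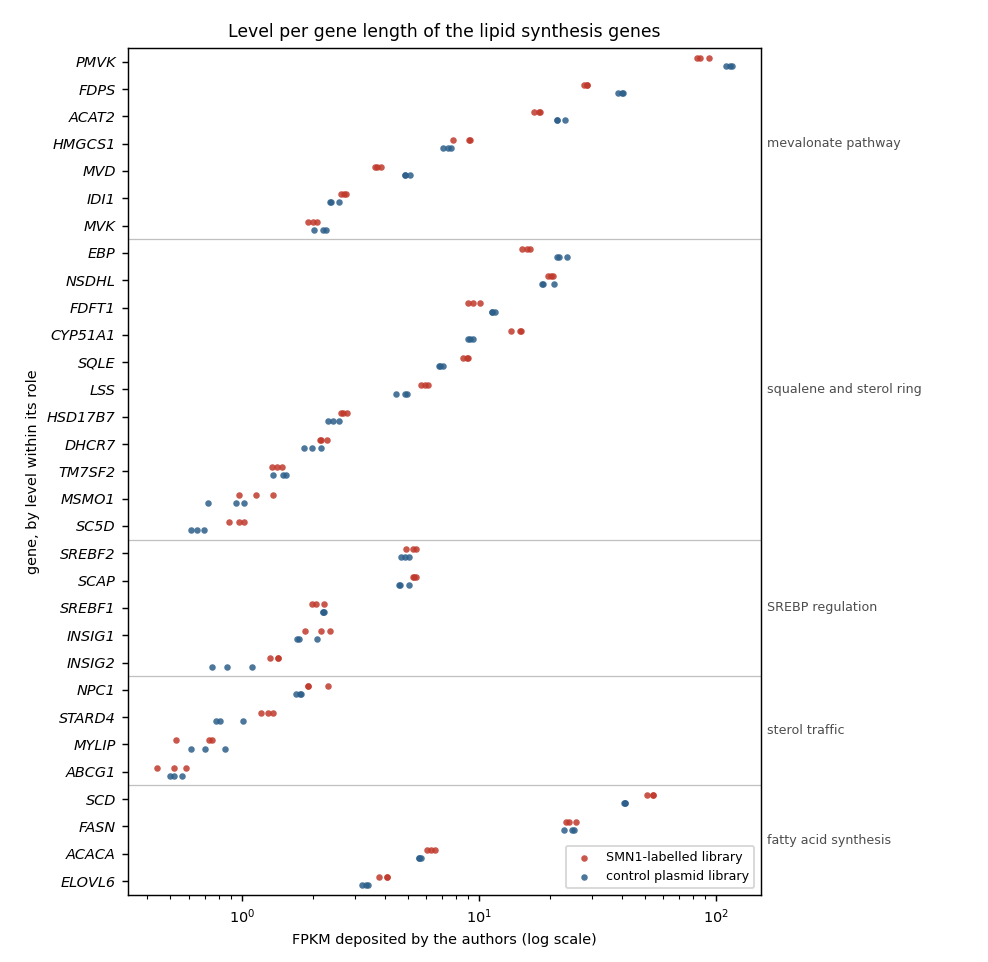
FPKM of each gene in each library on a log axis, ordered by level within each role, with SMN1-labelled libraries in red above control plasmid libraries in blue. PMVK, SCD, FDPS and FASN are the most abundant; ABCA1, listed at under 0.02 FPKM in every library, is left out.

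GC content moved with these results. Over the 31 genes the log2 fold change had a Spearman correlation of -0.65 with the GC content of the longest annotated transcript. Over 15662 genes it was -0.43. With gene length the correlation was 0.18 over the 31 genes and 0.34 over the 15662. Genes are not independent replicates and share the same 6 libraries. Of the 15 genes with a GC content below the median of all genes, 48.8%, 8 rose and 1 fell, beside 43.0% and 14.8% of all genes on that side. Of the 16 above it, 1 rose and 7 fell, beside 13.3% and 41.8%. LSS was the GC-rich gene that rose and FDFT1 the gene below the median that fell; both were named after their values were seen.

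**Figure D4:**
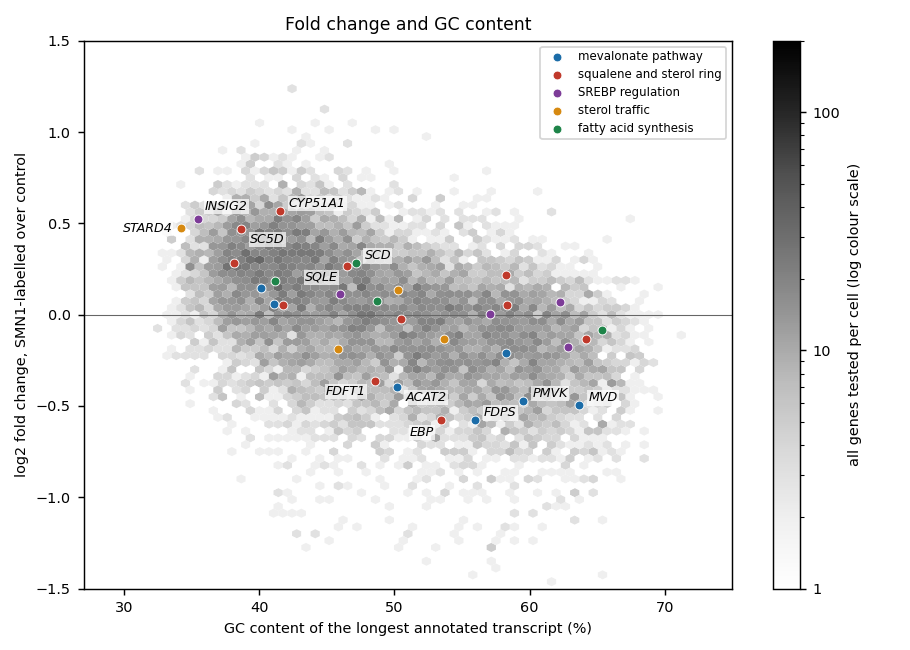
Log2 fold change of each tested gene against the GC content of its longest annotated transcript in percent; grey cells count all genes tested, of which those beyond the axis limits are not drawn, and coloured points are the lipid synthesis genes by role. Labelled genes are those called with a log2 fold change of at least 0.26 in size; most that rose lie on the GC-poor side and most that fell on the GC-rich side, as do all genes.

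With the trends with gene length and GC content taken out library by library, 10 of the 31 genes were higher and 6 were lower, beside 26.0% and 22.8% of all genes. Of the 17 calls 13 held, 7 higher and 6 lower. FDPS, FDFT1 and ACAT2 remained lower with log2 fold changes of -0.40, -0.41 and -0.36, and CYP51A1, LSS, SQLE and SCD remained higher with 0.46, 0.31, 0.21 and 0.19. The change of PMVK shrank to -0.11 (edgeR adjusted p = 0.0211), those of MVD and EBP to -0.30 and -0.36, and those of SC5D and STARD4 to 0.24 and 0.28. HMGCS1, MVK, SREBF1 and ELOVL6 were no longer called, and HMGCS1 and ELOVL6 changed sign, to -0.05 and -0.06. NSDHL, DHCR7 and SCAP were called higher, with 0.16, 0.23 and 0.21 (edgeR adjusted p = 0.0055, 0.0046 and 0.00081). With the trends removed the mevalonate pathway therefore had 4 genes lower and 0 higher, and squalene and the sterol ring had 6 higher and 2 lower. The same 13 calls held in each of 16 alternative analyses.

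**Figure D5:**
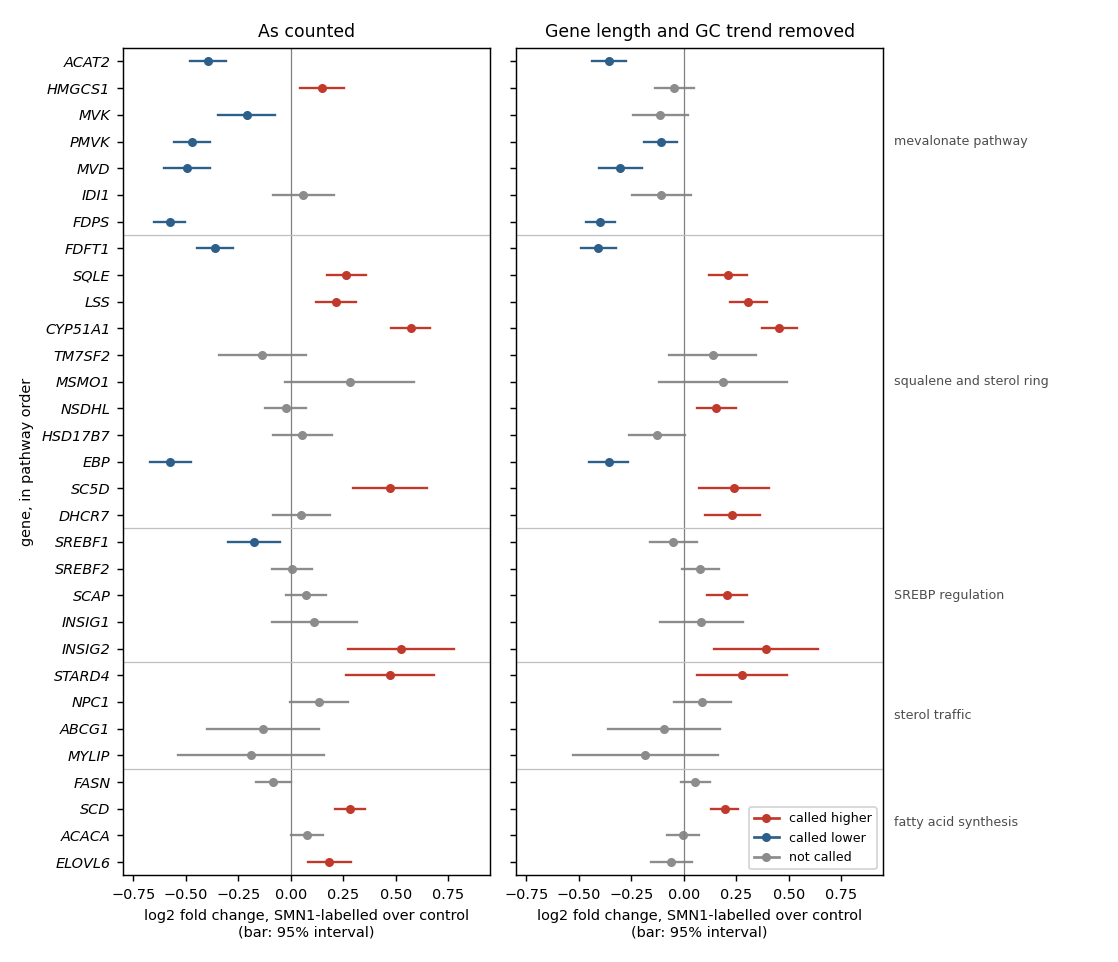
Log2 fold change of each of the 31 tested genes with its 95% interval, in pathway order, as counted on the left and after removal of the length and GC trends on the right; red marks genes called higher, blue lower and grey not called. FDPS, EBP and ACAT2 stay low in both panels and CYP51A1 high, whereas PMVK shrinks from -0.47 to -0.11.

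Other genes of these pathways were read from the same test, by lists of 91 names of which 88 were in the table and 86 were tested. In the SMN1-labelled libraries 35 rose (40.7%) and 17 fell (19.8%), beside 28.0% and 28.2% of all genes. After removal of the length and GC trends 28 rose and 14 fell, beside 26.0% and 22.8% of all genes. The median log2 fold change was 0.07 before and 0.06 after.

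Factors that process or degrade SREBP and INSIG had the largest share of rises. Of 14, 9 rose (64.3%) and 2 fell (14.3%), the median being 0.22 on the log2 scale, beside 28.0% and 28.2% of all genes. After the correction 7 rose and 1 fell, beside 26.0% and 22.8% of all genes. Their median GC content was 46.4%, on the side of the median where 43.0% of all genes rose, and their median length was 8832 nt, beside 4575 nt for all genes. MBTPS2, the protease that makes the second cut in SREBP, stood at 8.87 ± 0.257 CPM in the SMN1-labelled libraries and 6.33 ± 0.190 CPM in the control libraries, 1.40-fold higher (edgeR adjusted p = 3.1e-05). SEC23A, a subunit of the coat that carries SCAP and SREBP out of the endoplasmic reticulum, rose 1.40-fold. It stood at 9.79 ± 1.06 CPM in the SMN1-labelled libraries and 6.96 ± 0.748 CPM in the control libraries. After the correction the log2 fold change of MBTPS2 shrank from 0.49 to 0.24 (edgeR adjusted p = 0.0190). That of SEC23A shrank from 0.49 to 0.23 (edgeR adjusted p = 0.0460). PAQR3, a Golgi protein that anchors SCAP, rose 1.52-fold, a call lost after the correction (edgeR adjusted p = 0.0568). NPLOC4, a partner of UFD1 and VCP, rose 1.13-fold (log2 fold change 0.18, edgeR adjusted p = 0.00035). NPLOC4 stood at 102 ± 3.68 CPM in the SMN1-labelled libraries and 90.6 ± 1.83 CPM in the control libraries. Its call held in 16 of 16 alternatives. UFD1 and VCP, which extract ubiquitinated proteins from the endoplasmic reticulum, fell 1.15- and 1.06-fold; the call of UFD1 was lost without the third control library (edgeR adjusted p = 0.0565), and that of VCP was lost in 10 of 16 alternatives, among them the correction (0.12) and the analyses lacking the first (0.106) or second (0.0792) control library or the second (0.101) or the third (0.0710) SMN1-labelled library.

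Of 14 other sterol and isoprenoid enzymes 6 rose (42.9%) and 4 fell (28.6%), beside 28.0% and 28.2% of all genes. After the correction 3 rose and 4 fell, beside 26.0% and 22.8% of all genes. Their median GC content was 43.9%, on the side of the median where 43.0% of all genes rose and 14.8% fell. NUS1, a subunit of the enzyme that makes dolichol chains, rose 1.56-fold, with 19.9 ± 1.21 CPM in the SMN1-labelled libraries and 12.8 ± 0.683 CPM in the control libraries (edgeR adjusted p = 1.5e-08). PDSS2, which makes the side chain of ubiquinone, rose 1.42-fold, whereas COQ2, which attaches that chain, fell 1.44-fold. LBR, which has the same sterol reductase activity as TM7SF2, rose 1.27-fold, and ERG28, a scaffold of the demethylation enzymes, fell 1.39-fold. The log2 fold change of LBR shrank from 0.35 to 0.13 after the correction (edgeR adjusted p = 0.0425).

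Of 23 tested genes of sterol transport, storage and liver X receptor signalling 6 rose (26.1%) and 5 fell (21.7%), beside 28.0% and 28.2% of all genes, so their share of calls was no higher than the background. After the correction the counts were again 6 and 5, beside 26.0% and 22.8% of all genes. RXRA, a partner of the liver X receptors, fell 1.95-fold, with 6.53 ± 0.385 CPM in the SMN1-labelled libraries and 12.8 ± 0.671 CPM in the control libraries (edgeR adjusted p = 4.6e-10). NPC2, which hands cholesterol to NPC1 in the lysosome, fell 1.61-fold, with 8.15 ± 0.519 CPM in the SMN1-labelled libraries and 13.1 ± 0.750 CPM in the control libraries (edgeR adjusted p = 6.7e-08). OSBPL5, an oxysterol-binding protein, fell 1.78-fold, and OSBPL9, another, rose 1.28-fold. The log2 fold change of OSBPL9 shrank from 0.35 to 0.10 after the correction (edgeR adjusted p = 0.0300). SOAT1, which esterifies cholesterol for storage, and LIPA, which frees it in lysosomes, rose 1.36- and 1.34-fold, calls lost after the correction (edgeR adjusted p = 0.0756 and 0.0791).

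Of 35 other genes of fatty acid and glycerolipid synthesis 14 rose (40.0%) and 6 fell (17.1%), beside 28.0% and 28.2% of all genes. After the correction 12 rose and 4 fell, beside 26.0% and 22.8% of all genes. ACSL1, which activates fatty acids with coenzyme A, rose 1.49-fold, with 44.9 ± 0.698 CPM in the SMN1-labelled libraries and 30.2 ± 0.764 CPM in the control libraries (edgeR adjusted p = 1.2e-10). ELOVL4, an elongase of very long chains, rose 1.60-fold, and HACD2, a dehydratase of the elongation cycle, 1.52-fold. TECR, the reductase that ends that cycle, fell 1.40-fold, with 28.8 ± 1.37 CPM in the SMN1-labelled libraries and 40.3 ± 0.459 CPM in the control libraries (edgeR adjusted p = 5.5e-09). MECR, a reductase of mitochondrial fatty acid synthesis, fell 1.40-fold, and DGAT2, which makes triglycerides, 1.55-fold.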

How the data were processed

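Stranded mRNA libraries of 6 SH-SY5Y samples were sequenced as paired 150 nt reads, per the labels' protocols; GRCh38, HISAT2 and DESeq2 are named without roles in the submitters' processing notes. The count table deposited by the authors holds raw read counts of 28862 genes, and the FPKM table deposited by the authors holds values scaled by gene length and depth for 28501 genes, rounded to 2 decimals. The sources used here do not name the counting tool, its strand setting or how it treats reads with several matches. In GENCODE v29 the exons of 12 of the 32 genes overlap a gene on the opposite strand, those of 2 (CYP51A1 and TM7SF2) overlap one on the same strand, and 4 have pseudogenes named after them.

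Counts were tested in edgeR 4.0.16 (R 4.3.3) with TMM factors, the default filter, group as the only term and Benjamini-Hochberg adjustment over all genes. Each SE was derived from the F statistic. Alternatives used DESeq2 1.42.0, limma 3.58.1, other filters and size factors, a replicate block, each library left out, limma on log2(FPKM + 0.1) and log2(FPKM + 1) of genes with at least 0.5 FPKM in 3 libraries, and splines with 5 degrees of freedom on gene length and GC content within each library. The fits across genes were tested on simulated counts. Within a group, libraries differed beyond sampling noise, with chi-square values of 2.41 to 4.12 per degree of freedom. The members, lists and alternatives were chosen with earlier results of these data known, and ratios of genes after their values were seen. All 32 members are named. Of the other lists, up to 3 called genes in each direction with the largest change and at least 1 CPM in a group are, and NPLOC4 beside its partners UFD1 and VCP. A gene that this rule picks is not reported here.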

Additional observations from a re-analysis of the deposited data

How the results depend on the processing

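The number of genes called higher ranged from 8 to 12 and the number called lower from 6 to 9 over 16 alternative analyses, against 9 and 8; over the same analyses 16.2% to 39.8% of all genes were higher and 10.1% to 31.8% lower. Without 1 library in turn the summed mevalonate level kept a log2 ratio of -0.39 to -0.38. The number of other pathway genes called lower was 10 on log2(FPKM + 0.1) and on log2(FPKM + 1), against 17, and 12 on log2(FPKM + 1) without a filter. The groups share replicate numbers, but libraries with the same number did not deviate together (correlations 0.005, 0.013 and 0.003). Whether the numbers mark pairs is not known, since pairs need not share a deviation. With the replicate number as a block 9 genes were higher and 8 lower.

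Of 890 results for single genes under an alternative, 810 kept direction and call, 16 gained the call, 41 lost it and 23 changed sign, where the cause was not tested. On the length and GC correction the log2 fold change changed sign for HMGCS1 (-0.046), IDI1 (-0.11), TM7SF2 (0.14), NSDHL (0.16), HSD17B7 (-0.13), FASN (0.054), ACACA (-0.0037) and ELOVL6 (-0.059). On log2(FPKM + 0.1), and on log2(FPKM + 1) with and without a filter, it did so for NSDHL (0.064 and 0.061), FASN (0.0041 and 0.0040) and VCP (0.0068 and 0.0066). With 1 library left out NSDHL ranged from -0.052 to 0.024, highest without the first control library. SREBF2 was at -0.0083 with the stricter filter and ranged from -0.030 to 0.047 with 1 library left out, below 0 without the second or the third control library or the first or the third SMN1-labelled library. On log2(FPKM + 1), where the added 1 shrinks folds of low genes, INSIG2, STARD4 and SC5D were at 0.33, 0.29 and 0.25. Depth limits ABCA1, MSMO1, MYLIP and ABCG1, all under 4 CPM.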
